A study of Mus musculus with 6 samples.

Results

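Peaks assigned to ribosomal protein genes were collected from 6 peak lists of chromatin immunoprecipitation followed by sequencing (ChIP-seq). A peak was a member if the file named as its nearest gene a symbol starting with Rpl, Rps, Mrpl or Mrps and then a digit. This rule took 608 peaks of 134964 in all lists, and they carried 122 gene names. Cytosolic ribosomal proteins (Rpl for the large subunit and Rps for the small subunit) gave 259 peaks at 60 genes, of which 35 were Rpl and 25 Rps. Mitochondrial ribosomal proteins (Mrpl and Mrps) gave 223 peaks at 49 genes, of which 30 were Mrpl and 19 Mrps. The rule also caught 10 genes that do not encode ribosome parts, namely the Rps6k kinases, which are signalling enzymes, and Rps19bp1, with 100 peaks. A further 26 peaks lay near 3 pseudogenes. The last 2 groups were kept apart and are described once, at the end.

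Cytosolic ribosomes translate the mRNAs of the nucleus, and every growing cell needs their proteins in equal amounts. Mitochondrial ribosomes translate the few mRNAs of the mitochondrial genome, but their proteins are encoded in the nucleus too. Promoters of both classes are typically short, rich in CpG and active in most cell types, and in other systems they are known for sites of ETS proteins, YY1 and, for mitochondrial genes, NRF1. C/EBPα and IRF8 are transcription factors of the myeloid lineage, and JUNB is a subunit of AP-1. IRF8 commonly binds with the ETS protein PU.1 at composite sites.

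The cells were bone marrow-derived macrophages (BMDMs) of wild-type mice aged 8 to 12 weeks, grown from marrow for 6 days with L929 supernatant, a source of the growth factor M-CSF. Control cells had M-CSF only, and treated cells also had IL-4 at 20 ng/ml for 1 h, which starts alternative polarization. Chromatin was cross-linked with DSG and formaldehyde and precipitated with antibodies to C/EBPα (sc-61X), IRF8 (sc-32528x) or JUNB (sc-46x). Each factor and condition had 1 sample, so there were no replicates, no difference could be set against a spread between samples, and sequencing depth is unknown.

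In all, 24486 C/EBPα peaks were listed for control cells and 24612 for treated cells, with 37525 and 42076 for IRF8 and 3940 and 2325 for JUNB. A change in depth, library kit or antibody yield and a change in binding cannot be told apart in such pairs. The macrophage genes Csf1r, Emr1, Itgam and Lyz2 were the nearest gene of at least 1 peak in every C/EBPα and IRF8 list, while the T cell gene Cd3e and the fibroblast gene Col1a1 had 0 peaks in all 6 lists. The neutrophil gene S100a8 had 1 or 2 peaks in each C/EBPα and IRF8 list, and the B cell gene Cd79a had 1, in the C/EBPα list after IL-4. The peak score is a number from the peak caller whose scale is not given in the sources used here and which probably is a −log10 significance value. It ranks peaks within a list, and a ratio of scores is not a ratio of bound chromatin.

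The sequences below are 100 bases each of the mouse genome (mm10, GRCm38), taken within peaks on which the results turn, outside protein-coding exons and on the strand of the named gene. Capitals mark matches to short motifs, searched on both strands. The motifs were C/EBP (TTGCNNAA), AP-1 (TGANTCA), composite ETS-IRF (GGAANNGAA), ISRE (GAAANNGAA), STAT (TTCNNNGAA), ETS (CCGGAAG), YY1 (AAGATGG), NRF1 (GCGCATGC) and E-box (CACGTG), and some of them can overlap. A match is a description of the letters and not evidence of binding. Where a motif was set for a peak, a stretch that holds it was preferred, and then the stretch nearest the peak centre. The printed matches are thus partly selected. The first 4 are cytosolic promoters, shown because Rpl10a had the highest promoter scores, Rps12 and Rps3 were among the top IRF8 promoters, and Rps6, chosen after its values were seen, carries an ETS motif.
Rpl10a promoter, chr17:28328233-28328332, plus strand: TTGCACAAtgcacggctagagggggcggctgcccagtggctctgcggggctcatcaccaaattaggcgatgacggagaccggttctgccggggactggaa
Rps12 promoter, chr10:23787276-23787375, minus strand: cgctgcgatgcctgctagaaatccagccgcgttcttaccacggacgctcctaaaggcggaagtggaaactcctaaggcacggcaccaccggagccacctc
Rps3 promoter, chr7:99483739-99483838, minus strand: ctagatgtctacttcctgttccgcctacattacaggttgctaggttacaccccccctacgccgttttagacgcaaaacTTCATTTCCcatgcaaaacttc
Rps6 promoter, chr4:86857452-86857551, minus strand: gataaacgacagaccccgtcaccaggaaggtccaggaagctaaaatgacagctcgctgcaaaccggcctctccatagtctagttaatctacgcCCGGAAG

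The mitochondrial promoters below belong to the 3 genes with peaks of both C/EBPα and IRF8 in both conditions.
Mrpl11 promoter, chr19:4961882-4961981, plus strand: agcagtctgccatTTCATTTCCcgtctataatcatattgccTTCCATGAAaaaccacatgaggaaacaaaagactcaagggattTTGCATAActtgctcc
Mrpl45 promoter, chr11:97315219-97315318, plus strand: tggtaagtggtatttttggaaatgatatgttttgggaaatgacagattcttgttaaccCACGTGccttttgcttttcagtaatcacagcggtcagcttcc
Mrpl52 promoter, chr14:54426769-54426868, plus strand: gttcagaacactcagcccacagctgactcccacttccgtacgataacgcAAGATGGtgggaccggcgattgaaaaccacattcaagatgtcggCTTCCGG

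The next 5 lie outside promoters. Upstream and downstream refer to the start site in the peak annotation, and the Mrpl33 peak is centred inside the annotated body of Mrpl33. Mrpl16, Mrpl33 and Rps20 hold some of the highest-scoring member peaks, and the last pair holds the JUNB peaks with the highest scores in each class.
Mrpl16 upstream, chr19:11766588-11766687, plus strand: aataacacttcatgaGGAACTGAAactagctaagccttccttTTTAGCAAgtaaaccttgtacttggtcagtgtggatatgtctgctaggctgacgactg
Mrpl33 upstream, chr5:31602494-31602593, plus strand: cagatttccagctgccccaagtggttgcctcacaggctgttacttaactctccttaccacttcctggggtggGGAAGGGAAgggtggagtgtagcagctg
Rps20 downstream, chr4:3812653-3812752, minus strand: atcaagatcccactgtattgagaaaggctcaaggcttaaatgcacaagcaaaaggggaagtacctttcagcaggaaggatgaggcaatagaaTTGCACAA
Rps3 upstream, chr7:99505811-99505910, minus strand: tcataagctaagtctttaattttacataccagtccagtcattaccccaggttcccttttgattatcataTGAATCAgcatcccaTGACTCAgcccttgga
Mrps10 upstream, chr17:47357369-47357468, plus strand: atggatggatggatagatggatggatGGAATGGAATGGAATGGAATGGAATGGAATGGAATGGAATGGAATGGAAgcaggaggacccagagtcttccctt

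The Rpl10a stretch opens with a C/EBP motif, and the Mrpl11 stretch holds C/EBP, STAT and ETS-IRF motifs. The Rps12 stretch holds none of the 9 motifs. The Mrpl52 stretch carries an ETS and a YY1 motif, the Rps3 upstream stretch carries 2 AP-1 motifs, and the capitals of Mrps10 are a run of GGAAT units that the file annotates as a simple repeat.

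The first comparison asked whether these factors sat at the promoters of ribosomal protein genes or elsewhere. Peaks near both classes were at promoters more often than the peaks of the same list as a whole, while most member peaks still lay outside promoters. Here a promoter peak is one that the authors' annotation calls promoter-TSS, where TSS is the transcription start site. For IRF8 in control cells, 24 of 78 cytosolic peaks were promoter peaks (30.8%, 95% Wilson interval 21.6 to 41.7), against 15 of 66 mitochondrial peaks (22.7%, 14.3 to 34.2) and 7.25% of all IRF8 peaks. After IL-4 the shares were 30 of 89 (33.7%, 24.7 to 44.0), 23 of 79 (29.1%, 20.3 to 39.9) and 9.16%. The 2 classes had overlapping intervals in both conditions, and both intervals lay above the share of all peaks. These intervals cover counting error only. Among IRF8 peaks with a score of 10 or more, the cytosolic shares were 20.7% (9.85 to 38.4) and 27.3% (16.3 to 41.8) in control and IL-4, and the mitochondrial ones 9.52% (2.65 to 28.9) and 9.68% (3.35 to 24.9), against 5.21% and 6.04% of all, so the mitochondrial intervals then include the share of all peaks.

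C/EBPα had fewer peaks near these genes, with member shares again above that of all peaks. Such a share also depends on how many peaks outside promoters carry a gene's name. Counted per gene in control cells, C/EBPα lay within 1000 bp of a start site at 12.3% of cytosolic and 10.3% of mitochondrial genes. Of all protein-coding genes, 11.6% had such a peak. In control cells 7 of 37 cytosolic peaks (18.9%, 9.48 to 34.2) and 7 of 34 mitochondrial peaks (20.6%, 10.3 to 36.8) were at promoters, against 6.88% of all peaks. After IL-4 these were 10 of 42 (23.8%, 13.5 to 38.5) and 7 of 40 (17.5%, 8.75 to 31.9), against 7.35%. With a score of 10 or more the shares were 9.52% and 6.25% in control and 12% and 10% after IL-4, against 5.91% and 6.46%, and all 4 intervals include the share of all peaks. JUNB had 0 promoter peaks among 6 cytosolic and 3 mitochondrial peaks in control, and 1 among 7 and 0 among 1 after IL-4, where 2.79% and 2.8% of all its peaks were at promoters.

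**Figure D1:**
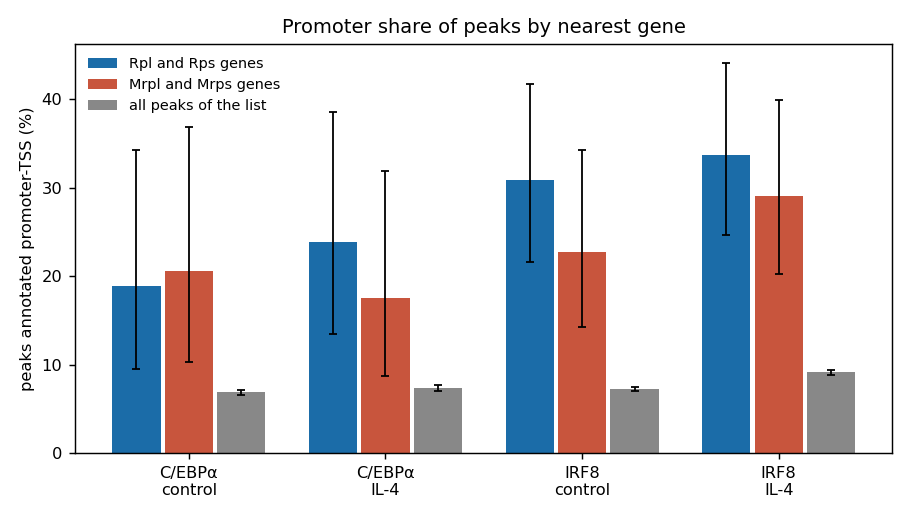
Bars give the share of peaks (%, vertical axis) annotated as promoter-TSS for C/EBPα and IRF8 in control and IL-4 samples, with 95% Wilson intervals for counting error. Peaks near Rpl and Rps genes (blue) and Mrpl and Mrps genes (red) stand between 17.5% and 33.7%, above the 6.88% to 9.16% of all peaks of a list (grey).

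Member peaks also lay closer to a start site overall. The median distance of IRF8 peaks after IL-4 was 5.87 kb for cytosolic and 5.07 kb for mitochondrial genes, against 20.0 kb for all peaks, and for C/EBPα it was 5.79 kb and 7.32 kb against 19.4 kb. Peaks more than 100 kb from the start site were rare, with 1 of 89 cytosolic and 1 of 79 mitochondrial IRF8 peaks after IL-4, where 13.1% of all peaks lay that far. C/EBPα had 0 of 42 and 0 of 40 against 12%. Distances, like promoter shares, depend on how many peaks outside promoters carry a gene's name.

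**Figure D2:**
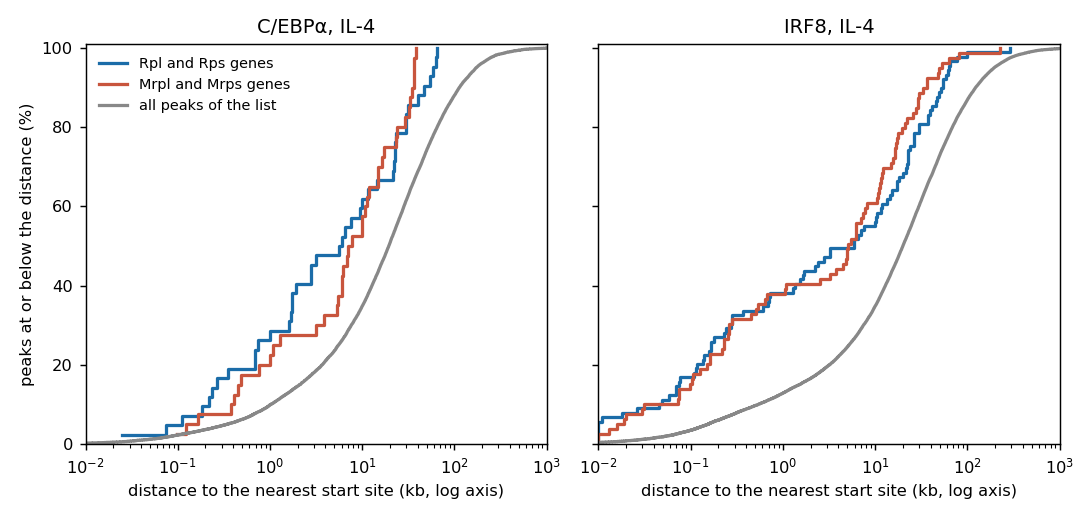
Each line gives the share of IL-4 peaks (%, vertical axis) that lie at or below a distance to the nearest start site (kb, log axis, distances under 0.01 kb drawn at 0.01), for C/EBPα on the left and IRF8 on the right. The lines of cytosolic (blue) and mitochondrial (red) genes run to the left of the line of all peaks (grey), with medians of 5.07 to 7.32 kb against 19.4 and 20.0 kb.

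A nearest-gene label can miss a promoter that lies between neighbouring genes, so each annotated start site was also searched for a peak within 1000 bp, whatever name the peak had. IRF8 peaks were again more common at ribosomal protein genes than at other genes, and C/EBPα peaks were not. In control cells IRF8 lay at 29 of 81 cytosolic genes (35.8%, 26.2 to 46.7) and 27 of 78 mitochondrial genes (34.6%, 25.0 to 45.7), against 19% of 21938 protein-coding genes. After IL-4 it lay at 36 of 81 (44.4%, 34.1 to 55.3) and 40 of 78 (51.3%, 40.4 to 62.1), against 26.2%. Promoters rich in CpG are more often occupied in general, and 68 of the 81 and 63 of the 78 member genes have one. Among all 10920 genes with such a promoter IRF8 lay at 25.7% in control and 37.6% after IL-4, and among the member genes with one it lay at 36.8% and 44.1% (cytosolic) and at 33.3% and 52.4% (mitochondrial). The interval of the cytosolic genes with a CpG-rich promoter after IL-4 (32.9 to 55.9) includes the 37.6%, as the control interval of the mitochondrial ones (22.9 to 45.6) includes the 25.7%.

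For C/EBPα the shares were 12.3% and 10.3% in control against 11.6% of all genes, and 16% and 14.1% after IL-4 against 12.6%, with intervals that include the share of all genes. Among genes with a CpG-rich promoter they were 11.8% and 6.35% in control against 15.4%, and 17.6% and 11.1% after IL-4 against 17%, and the mitochondrial control interval (2.5 to 15.2) lies below the 15.4%. For 33 of 81 cytosolic and 29 of 78 mitochondrial genes, no list had a peak within 1000 bp of a start site. The same share over all genes was not counted, so whether these counts are high or low is not known. Some peaks at member start sites carried another name than that of the gene. After IL-4, 7 of 41 IRF8 peaks at cytosolic and 13 of 45 at mitochondrial start sites did so, for example peaks named for Sphk2 at Rpl18 and for Mitd1 at Mrpl30. Most of these names, but not the pseudogene name Rpl34-ps1 at Rpl34, fall outside the naming rule, and some are older symbols or neighbours.

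**Figure D3:**
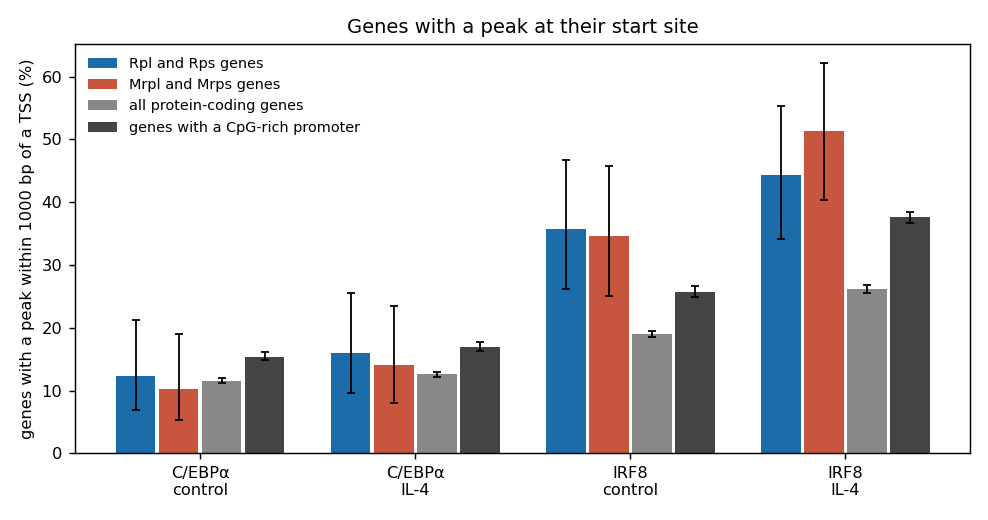
Bars give the share of genes (%, vertical axis) with a peak within 1000 bp of an annotated start site, with 95% Wilson intervals. IRF8 lay at 34.6% to 51.3% of cytosolic (blue) and mitochondrial (red) ribosomal protein genes against 19% and 26.2% of all protein-coding genes (grey) and 25.7% and 37.6% of genes with a CpG-rich promoter (dark grey), while the C/EBPα bars of all 4 groups lie between 10.3% and 17%.

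IRF8 was present in both conditions at 23 cytosolic genes, only in control at 6 and only after IL-4 at 13 (16%, 9.63 to 25.5). At mitochondrial genes the counts were 20, 7 and 20 (25.6%, 17.3 to 36.3). Over all genes it was present in both conditions at 15.9%, only in control at 3.15% and only after IL-4 at 10.3%, and the IL-4 list was the longer one. C/EBPα had 6, 4 and 7 cytosolic and 7, 1 and 4 mitochondrial genes in the same order, against 9.3%, 2.3% and 3.25% of all genes. The interval of the cytosolic share found only after IL-4 (8.64%, 4.25 to 16.8) lies above the 3.25%. The mitochondrial one (5.13%, 2.01 to 12.5) includes it. JUNB had 1 cytosolic gene, after IL-4 only, and 0 mitochondrial genes, where 0.269% of all genes had it only after IL-4.

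Scores at individual promoters were modest with 1 exception. Rpl10a, a protein of the large subunit, had a C/EBPα promoter peak that scored 100.64 in control and 98.52 after IL-4, at the 98.2 and 97.6 percentile of its list. Its IRF8 peak scored 41.82 and 70.01, and its promoter held the only JUNB promoter peak of all members, with a score of 3.14 after IL-4 and none in control. The C/EBPα peak spans chr17:28328075-28328519 in control, centred at −174 bp from the start site. An antisense long noncoding RNA in the annotation overlaps this stretch.

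The other cytosolic C/EBPα promoters scored far lower. Rpl23, also of the large subunit, scored 9.91 in control and 16.62 after IL-4. Rps24, of the small subunit, scored 11.67 and 10.79. Rpl7l1, a relative of Rpl7, and Rpl41 had a promoter peak after IL-4 only, with scores of 8.90 and 8.10. Only Rpl23 differed by 1.5-fold or more among the paired promoter peaks.

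Several other high-scoring cytosolic IRF8 promoters belonged to genes of the small subunit. The large subunit genes Rpl29 and Rpl9, given below, scored higher than Rps3 after IL-4. Rps12 scored 19.12 in control and 30.73 after IL-4, and Rps4x scored 12.60 and 19.88, both higher after IL-4. Rps3, which also has a role in DNA repair, went the other way with 17.27 and 11.28. The largest ratios among paired cytosolic IRF8 promoter peaks were at Rpl9 (4.02 in control, 12.15 after IL-4) and Rpl29 (4.61 and 13.32), which were singled out after their values were seen. These values place Rpl10a well above the rest, since the median cytosolic IRF8 promoter peak scored 5.37 in control and 7.02 after IL-4.

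Among mitochondrial genes, Mrpl45 had the highest C/EBPα promoter score after IL-4, 26.24, and 10.51 in control. Mrpl11 scored 3.18 and 13.09 for C/EBPα, and its IRF8 peak scored 2.59 and 10.65. The 2 Mrpl11 peaks do not overlap, as after IL-4 the C/EBPα peak centre lies at −375 bp and the IRF8 peak centre at −75 bp from the start site. Both factors had a log2 score ratio of 2.04 there, the largest of the mitochondrial promoters.

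Mrpl45 differed in direction between factors, since its main IRF8 peak scored 14.07 in control and 5.38 after IL-4. A second Mrpl45 IRF8 peak, which overlapped the C/EBPα peak, scored 4.70 in control and had no IL-4 partner. Mrpl52 had 2 C/EBPα peaks in control, with 6.79 and 6.66, and 1 after IL-4 with 9.82. Its IRF8 peak scored 24.82 and 19.55, the highest of the mitochondrial IRF8 promoters.

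Promoter peaks found after IL-4 only included Mrpl12 (C/EBPα, 7.31), Mrpl1 (IRF8, 12.05) and Mrps30 (IRF8, 8.85). A C/EBPα peak centred at −409 bp from the Mrps28 start site was also found after IL-4 only, with 6.43. Only these 4 genes carried promoter peaks of both C/EBPα and IRF8 in both conditions: Rpl10a, Mrpl11, Mrpl45 and Mrpl52. In either condition, 6 of 42 cytosolic and 6 of 29 mitochondrial genes with any promoter peak had both factors, 30 and 20 had IRF8 without C/EBPα, and 6 and 3 had C/EBPα without IRF8. The IRF8 lists were longer than the C/EBPα lists. The same counts over all genes were not made, so neither these counts nor the 4 genes can be set against a background.

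**Figure D4:**
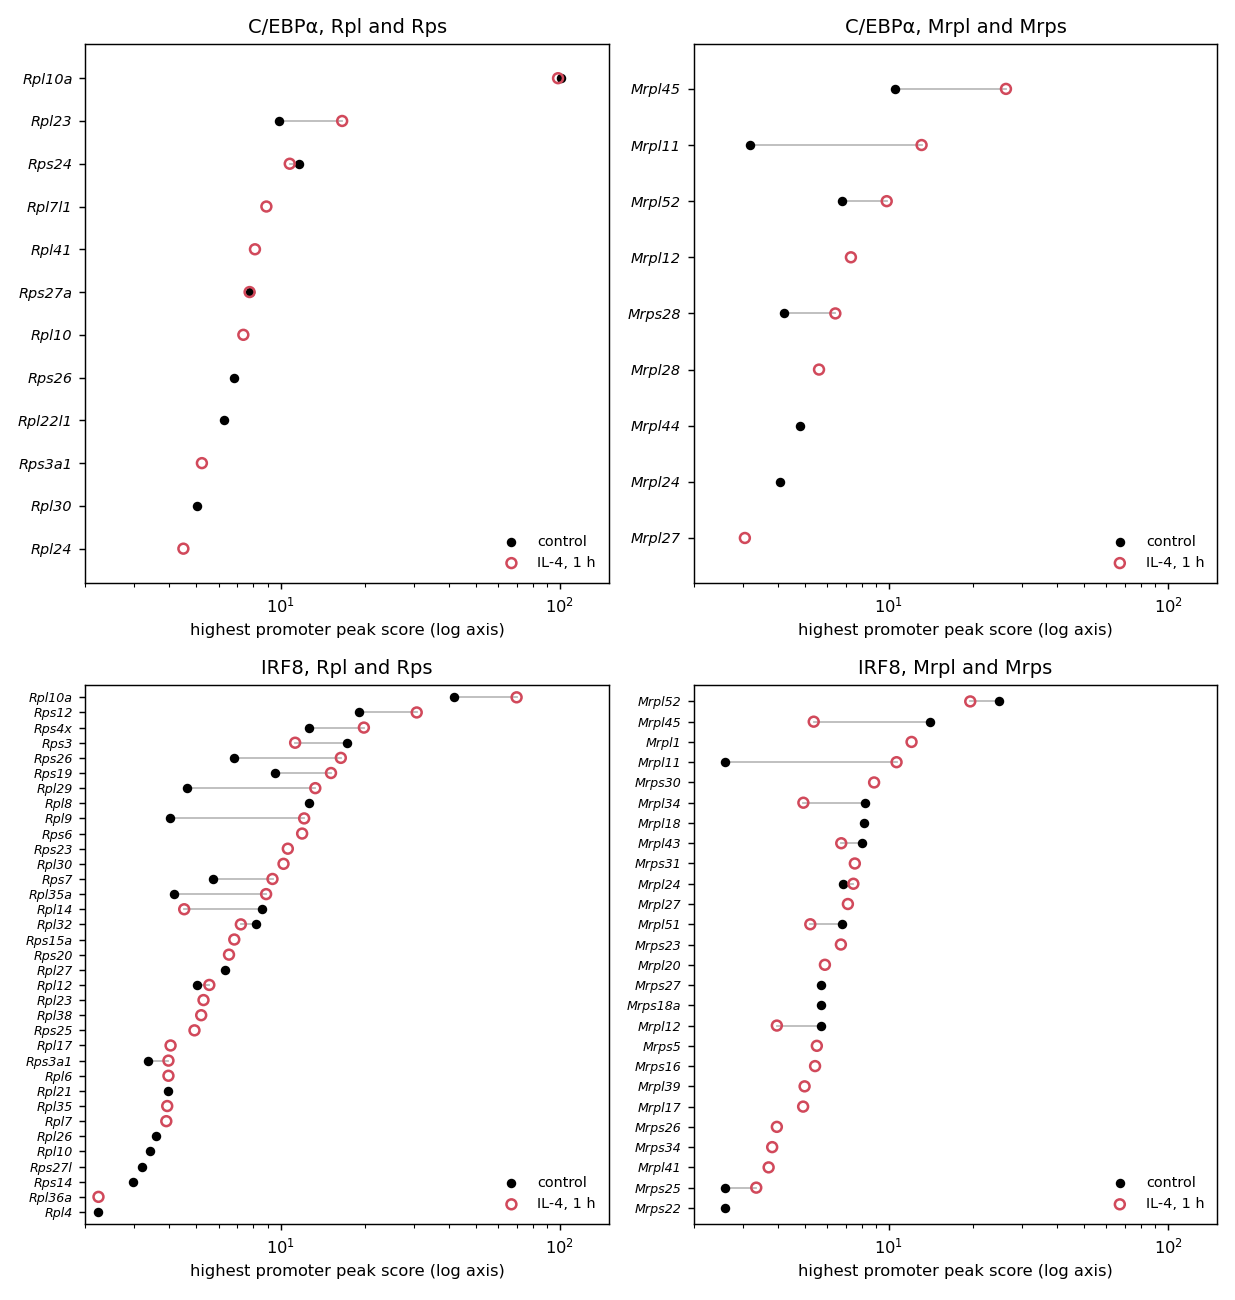
Each row is a gene and each point its highest promoter peak score (log axis) in control (filled) or after IL-4 (open), with a line where both were found, for C/EBPα (top) and IRF8 (bottom) at cytosolic (left) and mitochondrial (right) genes. Rpl10a stands alone at 98.52 to 100.64 for C/EBPα, and many IRF8 rows have an open point only. Not every gene with a promoter peak is drawn.

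IRF8 peaks at cytosolic member promoters rarely coincided with C/EBPα peaks. Of the cytosolic IRF8 promoter peaks, 3 of 24 in control and 3 of 30 after IL-4 overlapped a C/EBPα peak (12.5%, 4.34 to 31.0, and 10%, 3.46 to 25.6), against 27.3% and 23.2% of all IRF8 promoter peaks. For mitochondrial genes it was 3 of 15 (20.0%, 7.05 to 45.2) and 2 of 23 (8.7%, 2.42 to 26.8). All 4 shares are below those of all IRF8 promoter peaks, but each interval includes the share of all peaks.

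Member promoters were searched for the motifs in RefSeq promoter windows of 300 bases (GRCm38, 250 before to 50 after the start site), which were at hand for 65 cytosolic and 69 mitochondrial genes. The ETS motif CCGGAAG was in 32.5% of 77 cytosolic and 34.7% of 75 mitochondrial promoters, against 11.6% of all 21262 promoters. The YY1 motif AAGATGG was in 15.6% and 17.3% against 6.24%, and the NRF1 motif GCGCATGC in 3.9% and 10.7% against 3.51%. The ETS and NRF1 motifs contain CG. A CpG-rich promoter was found at 68 of 81 cytosolic and 63 of 78 mitochondrial genes, against 49.8% of all protein-coding genes. Motif shares were not compared within CpG-rich promoters, so an effect of base composition was not tested. The C/EBP motif was in 6.49% (2.81 to 14.3) and 4% (1.37 to 11.1) against 10.2%. The AP-1 motif was in 2.6% (0.715 to 8.98) and 4% (1.37 to 11.1) against 6.99%. The C/EBP and AP-1 intervals include the shares of all promoters. The composite ETS-IRF motif was in 14.3% (8.17 to 23.8) and 6.67% (2.88 to 14.7) against 7.77%. The ISRE motif was in 16.9% (10.1 to 26.8) and 9.33% (4.59 to 18) against 8.14%. For ETS-IRF and ISRE only the cytosolic interval lies above the share of all promoters.

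In the central 200 bases of IRF8 promoter peaks the ETS motif was more common at cytosolic genes than in all IRF8 promoter peaks. It was in 7 of 24 in control (29.2%, 14.9 to 49.2) and 12 of 30 after IL-4 (40.0%, 24.6 to 57.7). Of all IRF8 promoter peaks, 10.7% and 13.1% held it. At mitochondrial genes it was in 3 of 15 and 4 of 23. Both cytosolic intervals include the 32.5% of cytosolic promoters that held the motif with or without an IRF8 peak, counted in longer windows. Promoters without an IRF8 peak were not counted on their own, and a link of the motif to IRF8 binding was not tested. The composite ETS-IRF motif was in 4 of 30 cytosolic and 3 of 23 mitochondrial IRF8 promoter peaks after IL-4, against 12.8% of all. The promoters of Rps26 and Rps7 held an ETS motif in their IRF8 peak in both conditions, and the IRF8 peak at Rps6, printed above, was found after IL-4 only, with a score of 11.95. Rps26, Rps7 and Rps6 were named after their motifs were seen.

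The second comparison asked which peaks differed between control and IL-4. A peak of one list was counted as kept if it overlapped a peak of the other list by at least 1 bp, otherwise as lost (control only) or gained (IL-4 only). Among cytosolic C/EBPα peaks 9 of 37 were lost and 14 of 42 gained, and among mitochondrial ones 8 of 34 and 14 of 40, where 21.4% of all control peaks were lost and 22% of all IL-4 peaks gained. Among cytosolic IRF8 peaks 21 of 78 were lost and 34 of 89 gained, and among mitochondrial ones 17 of 66 and 32 of 79, against 21.4% and 30.4% of all. The member shares lost were 23.5% to 26.9%, close to the background. The shares gained were 33.3% and 35.0% for C/EBPα and 38.2% and 40.5% for IRF8, above the background, with lower bounds of 21.0, 22.1, 28.8 and 30.4 at or near it.

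Gained peaks were more frequent at member promoters than outside them. At IRF8 promoters 17 of 30 cytosolic and 13 of 23 mitochondrial IL-4 peaks had no control partner (56.7% and 56.5%), against 48.0% of all IRF8 promoter peaks, while outside promoters it was 28.8% and 33.9% against 28.7%. At C/EBPα promoters it was 6 of 10 and 4 of 7, against 27.8%. Lost C/EBPα peaks were also more frequent at member promoters, with 3 of 7 control peaks in each class (42.9%, 15.8 to 75). Of all C/EBPα promoter peaks 22.4% were lost, a share that this interval includes. Outside promoters 20% of cytosolic and 18.5% of mitochondrial C/EBPα peaks were lost, against 21.3% of all. Most of the gained promoter peaks scored under 10. Of the IRF8 promoter peaks with a score of 10 or more after IL-4, 3 of 12 cytosolic and 1 of 3 mitochondrial ones were gained, against 9.65% of all. Over promoters and other positions together, 8 of 44 cytosolic (18.2%, 9.51 to 32.0) and 3 of 31 mitochondrial (9.68%, 3.35 to 24.9) IRF8 peaks of that score were gained, against 6.36% of all, so the cytosolic share lay above the background among the stronger peaks too. Of the IRF8 control peaks of that score, 0 of 29 and 0 of 21 were lost, against 3.51% of all.

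**Figure D5:**
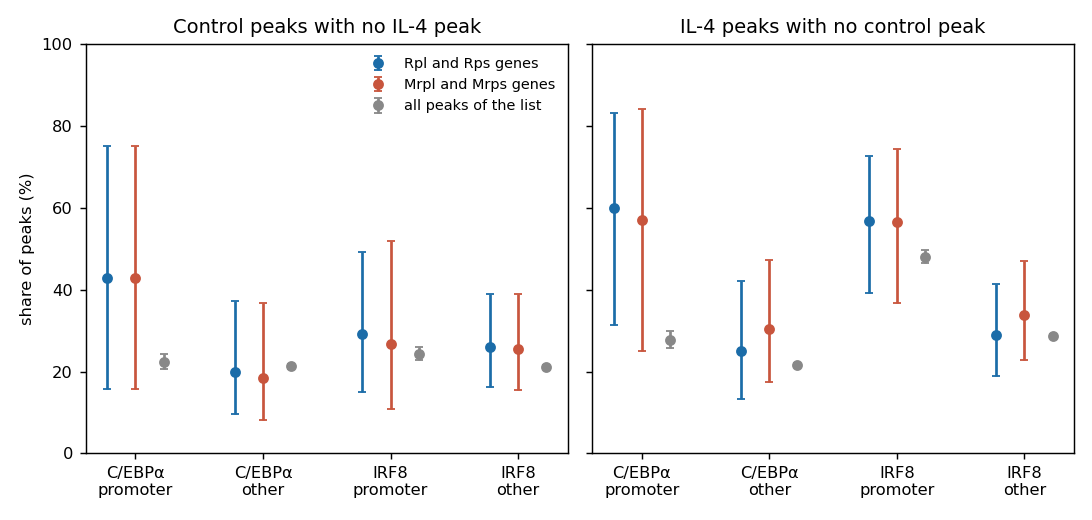
Points give the share of control peaks without an IL-4 partner (left) and of IL-4 peaks without a control partner (right), in percent with 95% Wilson intervals, for promoter and other peaks of C/EBPα and IRF8. The member points (blue, red) for gained promoter peaks lie between 56.5% and 60% against 27.8% and 48.0% of all promoter peaks (grey), and only the interval of the cytosolic C/EBPα point (31.3 to 83.2) leaves out its grey point.

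The highest-scoring gained cytosolic C/EBPα peaks were near Rpl11 (18.69, 9403 bp downstream), Rpl32 (12.62) and Rpl7l1 (8.90). The mitochondrial ones were near Mrps36 (19.30), Mrps28 (12.97) and Mrpl12 (7.31). For IRF8 they were near Rps28 (20.59), Rps24 (18.43) and Rps27a (13.86), and near Mrpl1 (12.05), Mrpl48 (11.66) and Mrps23 (11.40). The Rps24 peak lay 288659 bp from its start site, one of the few beyond 100 kb, so its link to the gene is by name only.

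Lost peaks scored lower. For C/EBPα high-scoring ones were near Rpl38 (6.94) and Rpl31 (6.91), and near Mrpl44 (9.26), Mrpl52 (6.79) and, with equal scores of 5.62, Mrpl4 and Mrps30. For IRF8 they were near Rpl30, Rps23 and Rps24, each with 9.27, and near Mrpl33 (9.77), Mrpl1 (8.69) and Mrpl18 (8.16). None of the lost C/EBPα or IRF8 peaks of either class reached a score of 10.

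Peaks found in both conditions were paired one to one and their scores compared. The median log2 ratio of IL-4 to control was 0.19 for 28 cytosolic and 0.02 for 26 mitochondrial C/EBPα pairs, against −0.00 for all pairs. Scores were at least 1.5-fold higher in 7 cytosolic and 6 mitochondrial pairs (17.7% of all C/EBPα pairs) and at least 1.5-fold lower in 1 and 9 (17.8% of all). For IRF8 the medians were 0.23 in 55 cytosolic and 0.15 in 47 mitochondrial pairs, against 0.08 for all. Higher by that fold were 19 and 13 pairs (23.6% of all IRF8 pairs) and lower 13 and 7 (17.5% of all). The 95% intervals of these medians over peaks all include 0 (−0.11 to 0.57 and −0.68 to 0.56 for C/EBPα, −0.22 to 0.43 and −0.13 to 0.41 for IRF8), and peaks are not replicates. With each score divided by its list's median, the IRF8 medians were 0.34 and 0.26.

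At IRF8 promoters the classes parted. The 13 cytosolic pairs had a median log2 ratio of 0.71, with 10 higher and 3 lower by 1.5-fold or more, and the 10 mitochondrial pairs had −0.30, with 1 higher and 2 lower. All 1991 IRF8 promoter pairs had a median of 0.27, with 31.7% higher and 12% lower by that fold. Neither difference could be tested, since there was 1 sample per condition.

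Several of the largest shifts at paired peaks were outside promoters. A C/EBPα peak 31.2 kb from Rps20 scored 6.49 in control and 50.46 after IL-4, a log2 ratio of 2.96. A peak in an intron of Fam69a, 22.5 kb from Rpl5, a large subunit protein that binds 5S rRNA, scored 31.26 and 98.34 for C/EBPα and 6.19 and 19.57 for IRF8, and JUNB had a peak there after IL-4 only, with 15.26. At the other end, an IRF8 peak at the transcript end of Rps29 scored 16.09 in control and 3.02 after IL-4, a log2 ratio of −2.41, and a C/EBPα peak in an intron near Mrpl33 scored 19.97 and 4.18. Rps29 was singled out after its values were seen.

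Outside promoters, the median scores of cytosolic C/EBPα peaks were above those of their lists, and those of IRF8 control peaks of both classes were below. The median score of such peaks was 14.4 and 18 for cytosolic C/EBPα peaks in control and IL-4, 11.4 in both for mitochondrial ones, and 11.2 and 11.4 for all. For IRF8 it was 8.65 and 10.3, and 6.88 and 9.96, against 10.5 and 10.2. Promoter peaks of members had lower medians, 7.77 and 7.92 for cytosolic and 4.79 and 7.31 for mitochondrial C/EBPα peaks, and 5.37 and 7.02, and 5.71 and 5.52 for IRF8. All promoter peaks scored 9.26 and 9.44 for C/EBPα and 7.34 and 6.77 for IRF8.

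The highest scores of each class lay outside promoters in every C/EBPα and IRF8 list, except for the Rpl10a promoter in the C/EBPα control list. An IRF8 peak 29.8 kb upstream of Rps14, a small subunit protein, scored 239.86 in control and 288.23 after IL-4, and C/EBPα scored 28.96 and 32.33 there. An IRF8 peak upstream of Mrpl16 (−3877 bp, chr19:11766193-11766883 in control) scored 170.98 and 227.90, while C/EBPα had a peak there only after IL-4, with 2.44. An IRF8 peak at −1053 bp from the Mrps28 start site in control scored 106.02 and 120.29. It lies just past the edge of the promoter class, and the C/EBPα peak at the same place was called a promoter peak in control (4.22, −999 bp) and an intergenic one after IL-4 (6.30, −1075 bp).

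For C/EBPα, the highest were a peak near Mrpl33 with 132.99 in control and 83.21 after IL-4, and a peak 22.9 kb from Rps20 with 86.51 and 116.23. The Mrpl33 peak lay 11.4 kb upstream of the start site in the peak annotation, but inside the annotated body of Mrpl33. The Rps20 peak lay inside the body of Lyn, which encodes a Src family kinase. IRF8 scored 7.66 and 6.04 at the Mrpl33 peak and 6.72 and 14.42 at the Rps20 peak. An IRF8 peak 58.1 kb upstream of Rpl31, with 92.53 and 95, lies in an intron of the circadian factor gene Npas2 on an LTR repeat.

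Such positions show how loosely a distant peak is tied to its label. Of the cytosolic IRF8 peaks outside promoters after IL-4, 30 of 59 lay in the body of a different protein-coding gene, 11 in that of the named gene and 18 in neither. For mitochondrial genes these were 13, 22 and 21 of 56. No gene expression was measured in these files, and whether any of these peaks acts on the named gene was not tested.

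JUNB left few peaks near ribosomal protein genes, 6 and 7 cytosolic and 3 and 1 mitochondrial in control and IL-4. Of the control peaks 4 cytosolic and 2 mitochondrial were lost, where 64.2% of all JUNB control peaks were, and 5 of the 7 cytosolic IL-4 peaks were gained, where 39.2% of all were. Only 3 peaks were found in both conditions. They were near Rps3 (17.73 and 4.22, 22.2 kb upstream in control), Rpl31 (12.18 and 8.45) and Mrps10 (22.78 and 17.62), and all had lower scores after IL-4. Of all JUNB pairs, 9.6% scored at least 1.5-fold higher and 47.9% at least 1.5-fold lower, and of these 3 the Rps3 pair was lower by that fold.

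The lost JUNB peaks included those near Rps14 (16.15), Rps15a (6.65), Rps9 (5.53), Mrpl1 (6.95) and Mrps28 (6.01). The gained ones were near Rpl5 (15.26), Rps14 (5.11), Rps27a (3.71), Rpl10a (3.14) and Rpl37a (2.74). The lost Rps14 peak overlapped the strongest IRF8 peak described above. At the lost Rps9 position C/EBPα scored 61.53 in control and 51.31 after IL-4, and IRF8 scored 41.50 and 22.18. At the gained Rps27a position C/EBPα scored 25.28 and 66.04, and IRF8 had a peak after IL-4 only, with 13.86. The Mrps10 position, a simple repeat, had an IRF8 peak too, with 25.81 in control and 10.64 after IL-4.

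Related genes outside the naming rule were counted on lists chosen with earlier results of these data known, beside 19% and 26.2% of all genes with IRF8 at the start site. IRF8 lay at 3 of 11 further ribosomal proteins such as Rplp0 and Rack1 in control and 5 of 11 after IL-4, at 2 and 6 of 13 translation factors and other growth-linked genes, and at 4 and 7 of 13 genes of ribosome biogenesis. C/EBPα lay at 2 and 2, 3 and 3, and 1 and 2 of the same lists, beside 11.6% and 12.6% of all genes. JUNB lay at 0 in each, beside 0.834% and 0.483% of all genes.

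Of the peaks at genes that share only the name, the Rps6k kinases and Rps19bp1, 3 of 18 C/EBPα peaks in control and 2 of 20 after IL-4 were at promoters (16.7% and 10%, against 6.88% and 7.35% of all). Of their IRF8 peaks it was 1 of 26 and 3 of 34 (3.85% and 8.82%, against 7.25% and 9.16%). IRF8 lay within 1000 bp of the start site of 3 of 11 of these genes in control and 7 of 11 after IL-4 (63.6%, 35.4 to 84.8), against 19% and 26.2% of all genes. C/EBPα lay at 3 and 2 of them, against 11.6% and 12.6% of all genes. Peaks beyond 100 kb of the start site made up 15.4% and 17.6% of their IRF8 peaks, against 13.4% and 13.1% of all, and each of these lay near Rps6ka3. Rps6ka3 alone had 9 and 5 C/EBPα and 9 and 11 IRF8 peaks in control and IL-4, more than any other member gene in the IRF8 lists, and Rps6ka5 had 2 and 5, and 6 and 6. Rps6kb2 held the highest kinase promoter score, 25.11 and 27.50 for C/EBPα. Among pseudogenes, Rpl34-ps1 had 2 and 5 C/EBPα and 5 and 9 IRF8 peaks, all of them intergenic except 1 IRF8 promoter peak that lay at the start site of Rpl34 as well. Its IRF8 peak at −143.6 kb scored 230.82 in control and 211.78 after IL-4.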

How the data were processed

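The data were 6 ChIP-seq peak lists, 1 per factor (C/EBPα, IRF8, JUNB) and condition. According to the study's methods and the submitters' processing notes, the authors aligned reads with BWA 0.7.10 to mm10, called peaks with MACS2 2.0.10, removed ENCODE blacklist regions and annotated peaks with HOMER 4.2 (SAMtools 0.1.19 is also named). The unit of the score in the deposited lists and any control library are not given in the sources used here. Depth per sample is unknown, and 2 library kits are named without saying which sample had which.

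Members and gene lists were chosen with earlier results of these data known. The named genes were, in each class, those with the 5 highest C/EBPα and the 5 highest IRF8 promoter scores, all with JUNB peaks, those with C/EBPα and IRF8 promoter peaks in both conditions, the 3 highest gained and lost peaks per factor and the 5 highest peaks outside promoters, besides the Rps6k genes and Rps19bp1. Peaks were paired by largest overlap. Start sites came from GENCODE vM21 and sequences from GRCm38.p6. A CpG-rich window (250 before to 50 after a start site) had at least 50% GC and 0.6 observed over expected CpG, a comparison added after seeing the data. Python 3.11.15, pandas 2.3.3, SciPy 1.17.1 and samtools 1.23.1 were used, and the pairing and counting were tested on simulated data. With 1 sample per group no test was run. Some genes that the rule names are not reported here.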

Additional observations from a re-analysis of the deposited data

Results flagged for a closer look

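The number of peaks near mitochondrial ribosomal protein genes differed in direction between factors, where the number after IL-4 over that in control was 1.18 (C/EBPα), 1.2 (IRF8) and 0.333 (JUNB), the last from 3 peaks to 1. The whole lists had ratios of 1.01, 1.12 and 0.59. Near the Rps6k kinases and Rps19bp1 the ratios were 1.11, 1.31 and 0, the last from 2 peaks to 0. The paired mitochondrial promoter peaks had a median log2 score ratio of 1.32 for C/EBPα (3 pairs) and −0.30 for IRF8 (10 pairs). With 1 sample per group, none of these differences was tested.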

How the results depend on the processing

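Under other settings 139 values were recomputed, 8 of them with a setting chosen after seeing the data (CpG-rich promoters only). Of these, 114 stayed close to the reported value (shares within its counting interval, score ratios within the binomial interval of their median, scores on the same side of the list's median) and 25 shares did not. At a score of 10 or more, promoter shares were 6.25% (mitochondrial, C/EBPα control), 12% (cytosolic, C/EBPα IL-4), 20.7% (cytosolic, IRF8 control) and 9.52% and 9.68% (mitochondrial, IRF8 control and IL-4), against 5.21% to 6.46% of all peaks. Within 2000 bp of a start site they were 40.5% (cytosolic, C/EBPα IL-4), 37.9% and 40.5% (mitochondrial, IRF8), against 13.7% to 16.6% of all. At a score of 10 or more, 0% of C/EBPα and IRF8 control peaks of either class were lost (3.78% and 3.51% of all), 8% and 10% of C/EBPα and 18.2% and 9.68% of IRF8 peaks were gained (cytosolic, mitochondrial), against 5.89% and 6.36% of all. For JUNB this left 0% of 1 mitochondrial peak lost and 100% of 1 cytosolic peak gained, against 40.5% and 11% of all. With an overlap of 50% of both peaks, 38.5% and 42.4% of IRF8 peaks were lost and 51.9% of mitochondrial ones gained, against 30.2% and 37.8% of all. With a peak within 250 bp, 7.69% (C/EBPα IL-4) and 23.1% (IRF8 control) of mitochondrial genes were occupied (6.99% and 12.1% of all genes), and by the name in a promoter peak 16.7% and 28.2% (IRF8, control and IL-4). By that name the share of all genes was not counted. Whether IRF8 at mitochondrial genes stays above all genes under this setting is thus not known. The causes were not tested, except that a stricter score leaves fewer peaks. With 1 sample per group no replicate could be left out. No paired analysis was possible because each group had 1 sample and the labels give no replicate numbers. Depth is unknown, and the unit of the score is inferred.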
